A study of Mus musculus with 4 samples.

Results

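Genes of the septin family were followed in RNA of GFP-positive testis cells sorted at postnatal day 18 from control *Zfp541*+/- mice and from mice labelled *Zfp541* KO, 10 genes in all. In the deposited tables these genes carry a September date in the place of their symbol, which is what a spreadsheet makes of a name such as *Sept12*, so that the row named 12-Sep stands for septin 12. The 10 rows were selected by these names from 24411 rows, and the list was drawn up with their values already known, so that the differences between the groups are given as a description and not as a test. Each file held 27 rows named by a date, 14 of them in September. Of these, 13 matched 1 septin each when the date was read as *Sept* and its number and looked up among the older symbols in RefSeq. The 10 members, 1-Sep, 2-Sep, 4-Sep, 6-Sep, 7-Sep, 9-Sep, 10-Sep, 11-Sep, 12-Sep and 14-Sep, matched 1 gene and 1 row each, and 0 rows of the files held a septin under its own symbol.

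Septins are GTP-binding proteins that join end to end into rods and then into filaments and rings at the cell membrane. They fall by sequence into the SEPT2, SEPT3, SEPT6 and SEPT7 subgroups, with SEPT7 the sole member of its own subgroup. A rod is built from subunits of several subgroups, not always of all 4. In dividing cells septins gather at the cleavage furrow with anillin. In sperm they form the annulus, the ring at the border of the midpiece and the principal piece of the tail, for which septin 4 and septin 12 are known.

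The samples were GFP-positive cells of single testes from mice of a mixed C57BL/6 and CBA strain that carried the *Rec8-3FH-GFP* knock-in, in which GFP is made along with REC8, a cohesin subunit of meiotic prophase. There were 2 control *Zfp541*+/- libraries and 2 libraries labelled *Zfp541* KO, the name of an allele made by CRISPR/Cas9 deletion in the gene of the zinc finger protein ZFP541. Of the controls, 1 was heterozygous and 1 homozygous for the knock-in, and both KO samples were homozygous. The labels do not say which control was which, so that knock-in dosage and the difference between the controls cannot be told apart. The study compared these cells to ask whether the loss of ZFP541 in meiotic prophase goes with a change in gene expression. Values are relative transcript abundances (TPM), which are corrected for gene length and scaled so that every library has an equal sum, and the depth of the libraries is therefore unknown.

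*Zfp541* itself had 112 TPM in control 1 and 72.2 TPM in control 2, against 136 and 151 TPM under the *Zfp541* KO label. The study reports that the deletion spans many exons of *Zfp541* and that the protein was absent from KO testis. The transcript level of *Zfp541* did not go down with the label, so that these values do not show the deletion. A value per gene cannot show which exons the reads came from, and every direction below rests on the labels alone. The spermatocyte markers *Sycp3*, *Ybx2* and *Hormad1* were at 531 TPM or more in all 4 libraries. The linker histone gene *Hist1h1t* was at 1.00 to 2.55 TPM. The study reports H1t protein in a large share of the sorted cells, which this transcript value does not measure. Control 2 stood apart in its summed macrophage and leukocyte markers, with 39.1 TPM against 1923 to 3033 TPM in the other 3 libraries, and in its Leydig cell markers, with 19.4 TPM against 400 to 3640 TPM. In a bulk sample, fewer cells of a type and less RNA per cell cannot be told apart.

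The bases just before the transcription start are shown for 12-Sep and 14-Sep, which differed most between the groups, and for 10-Sep, which was abundant in all 4 libraries. The windows are the 250 bases before the RefSeq start in GRCm38.p6, the assembly UCSC names mm10, read 5′ to 3′ on the strand of the gene. Capitals mark CpG dinucleotides. The 12-Sep window lies at chr16:4997853-4998102, the 14-Sep window at chr5:129704985-129705234 and the 10-Sep window at chr10:59221501-59221750, all on the minus strand. The RefSeq starts of 14-Sep and 10-Sep lie inside the spans that GENCODE gives these genes, so that their windows are not upstream of the GENCODE starts.
12-Sep: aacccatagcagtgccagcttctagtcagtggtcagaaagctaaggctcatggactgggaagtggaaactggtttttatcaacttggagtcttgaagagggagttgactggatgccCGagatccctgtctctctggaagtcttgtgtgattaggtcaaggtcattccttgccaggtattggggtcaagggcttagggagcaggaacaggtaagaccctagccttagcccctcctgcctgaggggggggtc
14-Sep: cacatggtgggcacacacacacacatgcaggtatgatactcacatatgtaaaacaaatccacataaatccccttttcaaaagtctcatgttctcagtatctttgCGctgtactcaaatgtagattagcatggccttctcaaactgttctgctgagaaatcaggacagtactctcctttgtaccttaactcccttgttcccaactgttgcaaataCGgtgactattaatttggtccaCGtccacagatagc
10-Sep: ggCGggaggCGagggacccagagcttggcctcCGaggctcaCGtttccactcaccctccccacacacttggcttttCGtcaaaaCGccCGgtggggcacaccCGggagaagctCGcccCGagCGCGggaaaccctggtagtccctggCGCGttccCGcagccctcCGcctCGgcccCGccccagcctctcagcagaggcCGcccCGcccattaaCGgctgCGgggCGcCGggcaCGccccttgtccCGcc

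The 12-Sep window held 1 CpG and the 14-Sep window 3, against 26 in the 10-Sep window. The number of CpGs over that expected from the content of C and G was 0.060 for 12-Sep, 0.29 for 14-Sep and 0.82 for 10-Sep, beside a median of 0.37 over 32851 promoter windows. RefSeq windows were found for 8 of the 10 members, 17 windows in all, and those of 2-Sep, 7-Sep, 10-Sep and 11-Sep were all above this median. The windows of 9-Sep, a gene with several starts, ran from 0.13 to 0.76, and those of 4-Sep from 0.10 to 0.43. A set of 4 short motifs were searched on both strands. The MYB motif AACNGTT, which reads alike on both strands, was present in 1 of the 17 windows and in 3.80% of all windows. This was the 14-Sep window, where AACTGTT began 110 and 50 bases before the start. The GC box GGGCGG was present in 8 of the 17 windows and in 32.7% of all windows, the CRE core TGACGT in 1 and in 6.47%, and the TATA box TATAAA in 0 and in 12.4%. The windows with a GC box belong to 2-Sep, 4-Sep, 9-Sep and 10-Sep. Windows of 2-Sep overlap each other, as do those of 12-Sep and some of 4-Sep, so that a stretch can be counted more than once. Neither window of 12-Sep held any of the 4 motifs. A match is a stretch of letters and not a bound site.

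**Figure D1:**
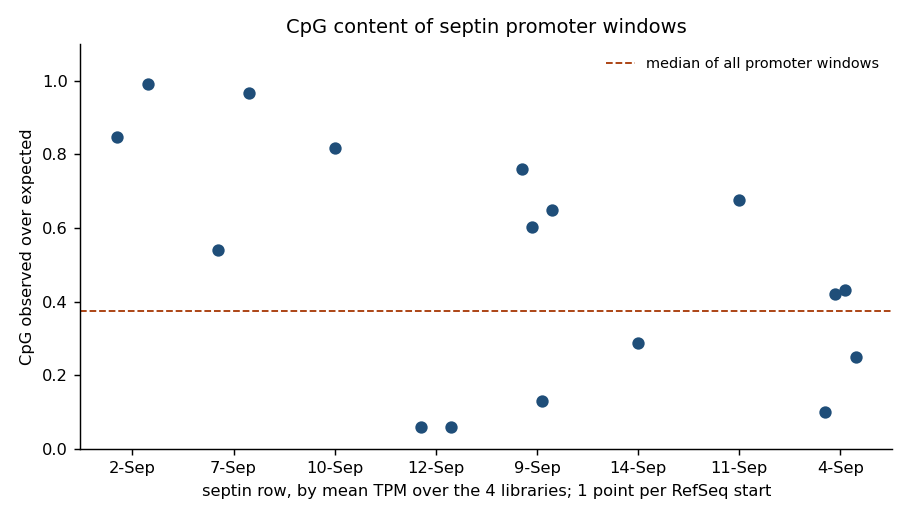
CpG dinucleotides observed over expected in the 250 bases before each RefSeq start (points) of the 8 septin rows with a promoter window, ordered by mean TPM. The dashed line is the median of all 32851 windows, 0.37. Both 12-Sep windows lie at 0.06, and all windows of 2-Sep, 7-Sep, 10-Sep and 11-Sep lie above the line.

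12-Sep was the septin row that differed most between the groups. The gene, *Sept12* (ENSMUSG00000022542.7), lies on chromosome 16 from 4986858 to 4997852 and encodes a testis septin of the sperm annulus that belongs to the SEPT3 subgroup. Control 1 had 191 TPM of 12-Sep and control 2 had 38.2 TPM, against 5.23 and 11.4 TPM in labelled KO libraries 1 and 2. Both labelled libraries were below both controls, yet the controls themselves lay 5.0-fold apart. The mean of the controls was 13.8 times that of the labelled libraries, and over the 4 pairs of a control and a labelled library the ratio ran from 3.36 to 36.6. The log2 fold change, labelled KO minus control on the log2(TPM + 1) scale, was -3.31 (SE 0.88, n = 2 per group). Only 0.358% of all genes tested had a value as low or lower. Control 1, the library with the highest 12-Sep, also held the most Leydig cell marker RNA, 3640 TPM, and the part of these cells in the value was not tested. The log2 fold change of 12-Sep was -2.16 without control 1 and -4.45 without control 2.

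14-Sep, by contrast, was higher in both labelled libraries. *Sept14* (ENSMUSG00000034219.15), on chromosome 5 from 129683391 to 129708512, encodes a septin of the SEPT6 subgroup that is found mainly in testis. It was at 9.98 and 6.22 TPM in control cells, against 19.1 and 17.6 TPM in KO-labelled cells, and the 2 groups did not overlap. The log2 fold change was 1.12 (SE 0.37), and the 4 pairs of libraries gave ratios from 1.76 to 3.08. In all, 923 genes (6.36% of those tested) had a value as high or higher, so that 14-Sep is less extreme among all genes than 12-Sep. Its log2 fold change was 1.42 without control 1 and 0.82 without control 2.

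7-Sep was also higher in both labelled libraries than in both controls. *Sept7* (ENSMUSG00000001833.17), on chromosome 9 from 25252439 to 25308571, encodes the subunit that has no paralogue within its subgroup. It was at 117 and 77.3 TPM in control cells, against 155 and 157 TPM in KO-labelled cells, which differed from each other by a factor of 1.01. The log2 fold change was 0.71 (SE 0.26), and the ratio over the 4 pairs ran from 1.32 to 2.03. Without control 1 it was 1.00 on the log2 scale and without control 2 it was 0.41. Exons of *Gm48272* overlap those of *Sept7* on the opposite strand. Whether the reads keep their strand is not stated, so that this row may share reads with *Gm48272*.

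11-Sep, a widely expressed member of the SEPT6 subgroup, was the remaining row without overlap, by a narrow margin. It was at 12.9 and 7.53 TPM in control cells, against 14.1 and 13.0 TPM in KO-labelled cells, and the lowest ratio of the 4 pairs was 1.01. Its log2 fold change of 0.42 (SE 0.39) was close to its error, and it was 0.77 without control 1 and 0.066 without control 2. After median-ratio scaling the 2 groups of 11-Sep overlapped.

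**Figure D2:**
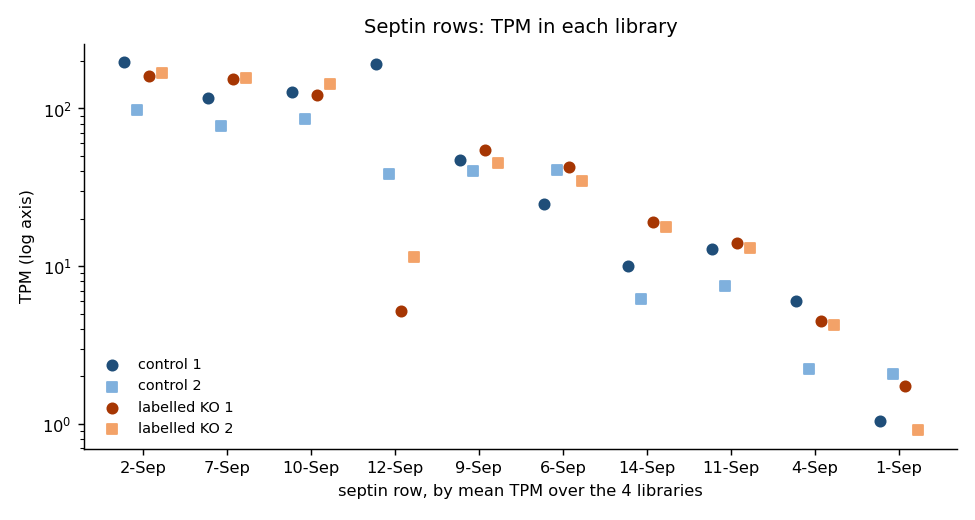
TPM of the 10 septin rows (log axis) in the 2 control libraries (blue) and the 2 libraries labelled *Zfp541* KO (orange), ordered by mean TPM; circles are replicate 1 and squares replicate 2. 12-Sep is at 191 and 38.2 TPM in control cells against 5.23 and 11.4 TPM in KO-labelled cells, whereas 7-Sep, 11-Sep and 14-Sep are higher in both labelled libraries.

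In the other 6 members the groups overlapped, and their log2 fold changes ran from -0.13 for 1-Sep to 0.33 for 10-Sep. 2-Sep, the row with the highest mean, encodes the septin after which the SEPT2 subgroup is named. It was at 196 and 97.6 TPM in control cells, against 162 and 168 TPM in KO-labelled cells, between the controls. 10-Sep, of the SEPT6 subgroup, was at 127 and 86.3 TPM in control cells, against 122 and 142 TPM in KO-labelled cells. For both rows the low library was control 2.

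9-Sep, a member of the SEPT3 subgroup expressed in most tissues, had the smallest ratio between the controls, at 46.8 and 40.1 TPM. It was at 54.5 and 45.0 TPM in the labelled libraries, and its log2 fold change was 0.19 (SE 0.23). 6-Sep lies on the X chromosome, from 36911326 to 36991794, and names the SEPT6 subgroup. It was at 24.7 and 40.6 TPM in control cells, against 42.7 and 34.6 TPM in KO-labelled cells. Control 1 was thus the low library for 6-Sep, the reverse of most members.

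4-Sep, the septin without which mouse sperm form no annulus, was low in these cells. It was at 6.03 and 2.23 TPM in control cells, against 4.51 and 4.24 TPM in KO-labelled cells, so that the known partners of the annulus, 4-Sep and 12-Sep, did not share a pattern here. 1-Sep, known from lymphocytes, was the lowest row, at 1.05 and 2.06 TPM in control cells, against 1.75 and 0.91 TPM in KO-labelled cells. Exons of *Zfp553* overlap those of *Sept1* on the opposite strand, *Gm15008* those of *Sept6* on the opposite strand, and *Gm11492* those of *Sept4* on the same strand, so that these rows may share reads with them.

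The comparison was fitted with limma over 14512 genes, those whose mean was 1 TPM or more, and all 10 members passed this filter. At an FDR of 0.05 after Benjamini-Hochberg adjustment, 0 of the 10 members and 0 of all genes (0%) were called. At an unadjusted p under 0.05 limma gave 1 member higher, 14-Sep, beside 10.7% of all genes, and 1 lower, 12-Sep, beside 3.73%. The groups did not overlap for 3 members that were higher, beside 38.6% of all genes, and for 1 member that was lower, beside 12.1%. These shares are near those of all genes, and nothing is read from the counts. The median log2 fold change of the members was 0.26 and that of all genes tested 0.28, and 4 of the 10 members were above the latter. Relative to this shift, 12-Sep was at -3.59, 14-Sep at 0.84, 7-Sep at 0.42 and 11-Sep at 0.13, and the other 6 members were between -0.41 and 0.044. Median-ratio scaling, which moved the median of all genes to -0.0044, changed the sign of 2-Sep, 4-Sep, 6-Sep and 9-Sep, and after it 23.1% of all genes were higher without overlap and 22.3% lower. Without control 1 the median log2 fold change of the members was 0.67 and that of all genes tested 0.44. Without control 2 these medians were 0.072 and 0.15. Fits without a control take the spread from the 2 labelled libraries alone and assume that the lone control varies as they do. Nothing is read from the calls of those fits.

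**Figure D3:**
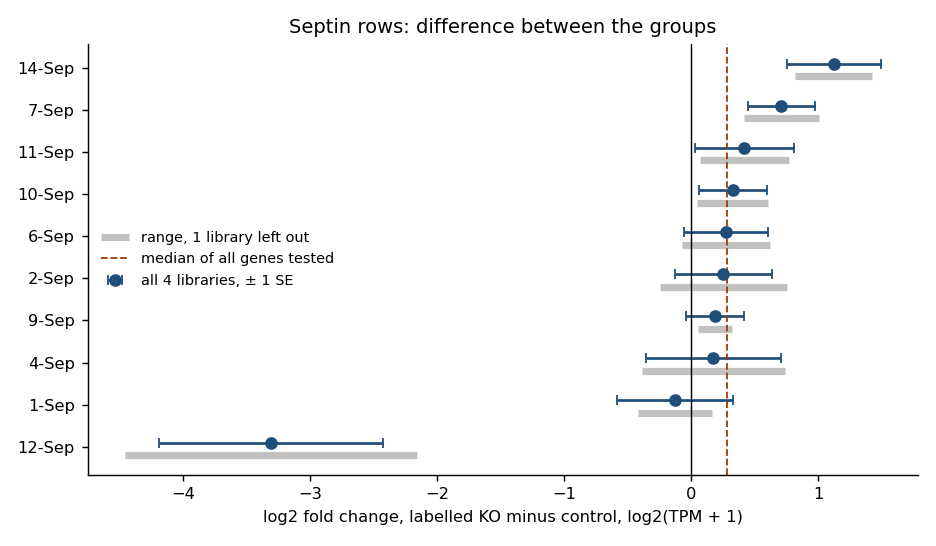
Log2 fold change of each septin row, labelled KO minus control on the log2(TPM + 1) scale, with 1 standard error (blue), and the range of its values with any 1 library left out (grey). The dashed line is the median of all genes tested, 0.28. 12-Sep at -3.31 and 14-Sep at 1.12 lie farthest from the line, and the ranges of 1-Sep, 2-Sep, 4-Sep and 6-Sep cross 0.

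The order of the members by mean TPM differed between the groups in the places of 12-Sep, of 7-Sep and 10-Sep, and of 11-Sep and 14-Sep. In the controls the order was 2-Sep, 12-Sep, 10-Sep, 7-Sep, 9-Sep, 6-Sep, 11-Sep, 14-Sep, 4-Sep and 1-Sep. The ranges of the first 4 ran into each other, as did those of 9-Sep and 6-Sep and of 11-Sep and 14-Sep, and the wide range of 12-Sep also took in values of 9-Sep and 6-Sep. In the labelled libraries the order was 2-Sep, 7-Sep, 10-Sep, 9-Sep, 6-Sep, 14-Sep, 11-Sep, 12-Sep, 4-Sep and 1-Sep, and no neighbours overlapped over the 2 libraries. By library, 12-Sep ranked 2 in control 1, 6 in control 2 and 8 in both labelled libraries, so that its second place in the controls rests on control 1.

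The make-up of the family was compared within each library, since a ratio of rows within a library is not moved by a scaling factor. The 10 rows summed to 733 and 398 TPM in controls 1 and 2 and to 581 and 594 TPM in the labelled libraries. The SEPT3 subgroup, 9-Sep and 12-Sep, held 32.5% and 19.7% of this sum in the controls and 10.3% and 9.49% in the labelled libraries. The SEPT7 subgroup, 7-Sep alone, held 15.9% and 19.4% in the controls and 26.7% and 26.4% in the labelled libraries. The SEPT2 subgroup held 27.7% and 25.6% in the controls and 28.9% and 29.2% in the labelled libraries. The SEPT6 subgroup held 23.9% in control 1 and 34.2% to 35.3% in the other 3. Among the 10 rows, the SEPT2, SEPT3 and SEPT7 shares did not overlap between the groups. The SEPT2 difference depends on which rows were chosen. 5-Sep belongs to this subgroup, was left out, and fell under the KO label. Its lowest control value was 51.9 TPM, and its highest labelled value was 30.3 TPM. With 5-Sep added to the subgroup and the family sum, the SEPT2 share was higher in both controls than in both labelled libraries. This is the reverse of the 10 rows, so that no direction is read for the SEPT2 subgroup as a whole. An exact permutation of 2 against 2 libraries cannot give a p under 0.33. Since 12-Sep enters the sum, the shares were also taken over the other 9 rows. SEPT7 then held 21.6% and 21.5% in controls 1 and 2 and 26.9% and 27.0% under the KO label. SEPT6 held 32.3% and 39.1% in controls 1 and 2 and 34.5% and 35.6% under the KO label, and SEPT3, by then 9-Sep alone, 7.72% to 11.1% with overlapping groups. SEPT2 held 37.5% and 28.3% in controls 1 and 2 and 29.2% and 29.8% under the KO label, also with overlapping groups.

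**Figure D4:**
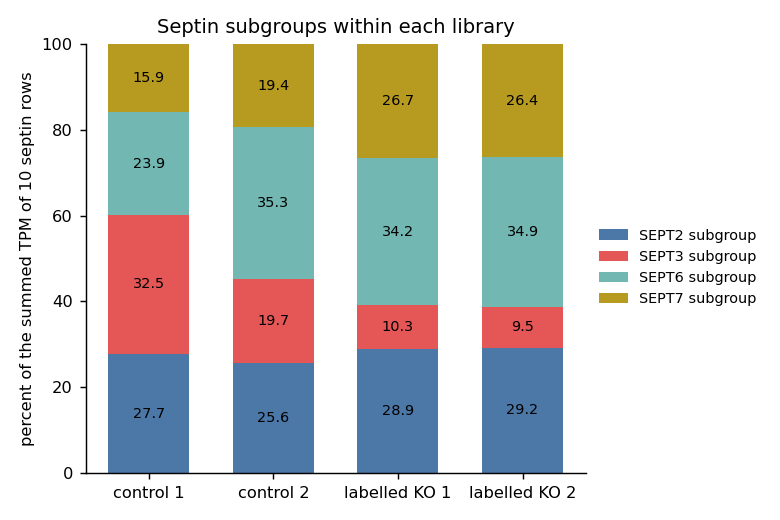
Share of the summed TPM of the 10 septin rows held by each subgroup (stacked bars, percent) in the 4 libraries. The SEPT3 subgroup holds 32.5% and 19.7% in control cells against 10.3% and 9.49% in KO-labelled cells, and the SEPT7 subgroup 15.9% and 19.4% against 26.7% and 26.4%.

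Within the SEPT3 subgroup, 12-Sep was at 4.09 and 0.953 times 9-Sep in the controls and at 0.096 and 0.253 times 9-Sep in the labelled libraries. Set against 7-Sep in the same library, 12-Sep was at 1.64 and 0.495 in the controls and 0.034 and 0.072 in the labelled libraries, whereas 14-Sep was at 0.085 and 0.081 in the controls and 0.124 and 0.112 in the labelled libraries. 14-Sep was the only one of the other 9 members whose ratio to 7-Sep was higher in both labelled libraries than in both controls. The ratios of 2-Sep to 7-Sep, 1.68 and 1.26 in the controls, were 1.04 and 1.07 in the labelled libraries. Those of 10-Sep to 7-Sep were 1.09 and 1.12 in the controls and 0.790 and 0.905 in the labelled libraries. The less abundant 9-Sep was also lower relative to 7-Sep, at 0.401 and 0.519 in the controls and 0.352 and 0.286 in the labelled libraries. So was 11-Sep, at 0.110 and 0.097 in the controls and 0.091 and 0.083 in the labelled libraries. 7-Sep was itself higher in both labelled libraries, so that a lower ratio to it does not by itself show a fall of the other row.

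Of 4 other genes listed for the sperm annulus, 3 were matched in the files and *Cby3* was not. *Dnajb13*, an axonemal chaperone also found at the annulus, was at 62.1 and 27.7 TPM in control cells, against 9.43 and 14.9 TPM in KO-labelled cells, without overlap and with control 1 the highest, as for 12-Sep. *Slc26a8*, an anion transporter of the annulus, was at 84.5 and 19.2 TPM in control cells, against 25.8 and 35.7 TPM in KO-labelled cells, where the groups overlapped. *Fam92a* (*Cibar1*), a membrane-binding protein that positions the annulus, was at 85.2 and 66.8 TPM in control cells, against 94.4 and 94.6 TPM in KO-labelled cells. None of the 3 was called at an FDR of 0.05 by limma, and at an unadjusted p under 0.05 there were 0 higher and 1 lower. The annulus genes therefore went in both directions, and their median log2 fold change of -0.41 became 0.49 without control 1.

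**Figure D5:**
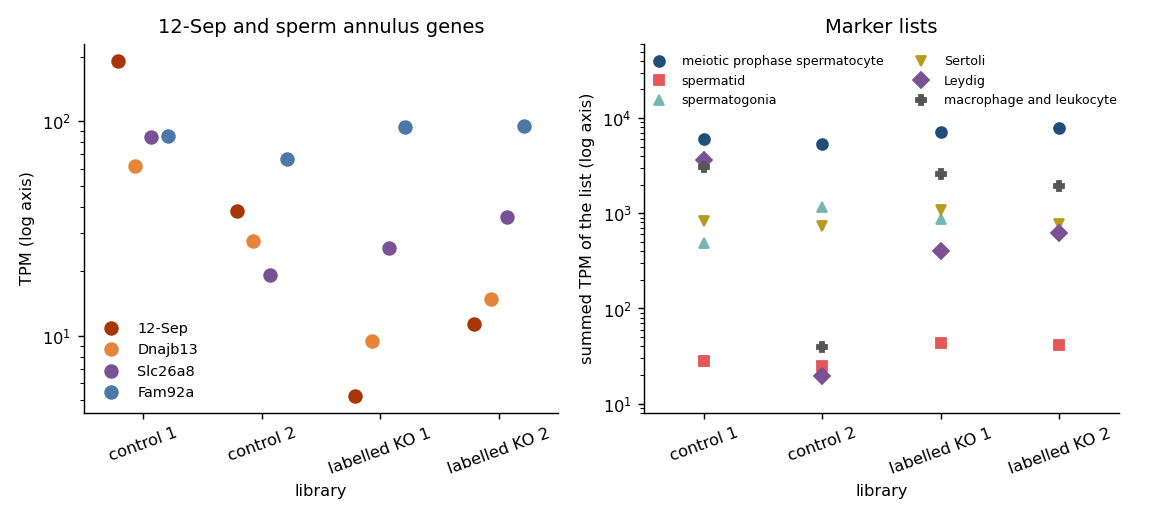
Left, TPM (log axis) of 12-Sep and 3 other genes of the sperm annulus in the 4 libraries. Right, summed TPM (log axis) of 6 marker lists in the same libraries. 12-Sep and *Dnajb13* are lower under the *Zfp541* KO label than in either control, *Slc26a8* overlaps, and the Leydig and macrophage lists are lowest in control 2.

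Of 16 genes for partners and regulators of septins, limma called 0 at an FDR of 0.05, and 2 were higher and 0 lower at an unadjusted p under 0.05, beside 10.7% and 3.73% of all genes. The groups did not overlap for 8 that were higher and 1 that was lower, beside 38.6% and 12.1% of all genes, and the median log2 fold change was 0.32, near the 0.28 of all genes. *Cdc42*, the small GTPase that acts through septin-binding effectors, was the most abundant, at 344 and 359 TPM in control cells, against 497 and 483 TPM in KO-labelled cells. *Rhoa*, the GTPase of the contractile ring, was at 272 and 255 TPM in control cells, against 331 and 306 TPM in KO-labelled cells. *Cdc42ep3*, which encodes a CDC42 effector that binds septins, was at 336 TPM in control 1 and at 70.6 to 104 TPM in the other 3 libraries.

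Of 17 genes of cytokinesis and the intercellular bridge, the ring canal that joins germ cells, limma called 0 at an FDR of 0.05, and 2 were higher and 0 lower at an unadjusted p under 0.05, beside the same 10.7% and 3.73%. The groups did not overlap for 10 that were higher and 1 that was lower, beside the same 38.6% and 12.1%, with a median log2 fold change of 0.31. *Chmp4b*, of the abscission machinery, was at 221 and 235 TPM in control cells, against 255 and 245 TPM in KO-labelled cells. *Cdca8*, a subunit of the chromosomal passenger complex, was at 174 and 227 TPM in control cells, against 190 and 200 TPM in KO-labelled cells, between the controls. *Tsg101*, which recruits the abscission machinery, was at 130 and 152 TPM in control cells, against 154 and 165 TPM in KO-labelled cells.

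Markers of the cells that could carry septin RNA were set beside these values. The 12 spermatid markers summed to 28.2 and 24.9 TPM in the controls and to 42.9 and 41.0 TPM in the labelled libraries, and *Spaca1*, of the acrosome membrane, carried the difference. Without *Spaca1* they summed to 20.9 TPM in control 1, 10.96 TPM in control 2, and 15.9 and 14.4 TPM under the KO label, highest in control 1, the library with the most 12-Sep. *Tnp2*, a transition protein gene, and *Tssk1*, a testis kinase gene, were also highest in control 1, at 7.59 TPM against 0 to 0.75 TPM and at 6.81 TPM against 1.99 to 3.61 TPM in the other 3. *Prm1* and *Prm2*, the protamine genes that define late spermatids, were low in every library and highest in control 1. *Prm1* was at 1.48 TPM there and listed at 0 in the other 3, and *Prm2* was at 0.89 TPM there and at 0 to 0.41 TPM in the other 3. *Tssk6*, a testis kinase gene, went the other way, at 2.56 and 5.49 TPM in control cells, against 8.83 and 7.14 TPM in KO-labelled cells. *Tnp1*, *Odf1* and *Akap4*, at 1.02 TPM or less, were also higher in both labelled libraries than in both controls. The part of spermatid RNA in the level of 12-Sep was not tested. The 11 meiotic prophase markers summed to 6056 and 5286 TPM in the controls and to 7116 and 7896 TPM in the labelled libraries, and 6 of them were higher without overlap, beside 38.6% of all genes. *Rec8*, whose locus carries the GFP used for the sort, was at 7.05 and 27.9 TPM in control cells, against 27.7 and 19.4 TPM in KO-labelled cells. The 12 spermatogonial markers summed to 484 and 1164 TPM in the controls and to 863 and 682 TPM in the labelled libraries, and the 8 Sertoli cell markers to 835 and 729 TPM in control cells, against 1094 and 777 TPM in KO-labelled cells. Of the members, 7 were lowest in control 2, beside 53.4% of all genes tested, and control 2 was also lowest in macrophage markers such as *Lyz2*, at 11 TPM against 646 to 1152 TPM in the other 3. The part of these cells in the levels of the septin rows was not tested. Red cell markers summed to 20.3 to 280 TPM with overlapping groups. Those of peritubular myoid and endothelial cells summed to 21.4 and 20.3 TPM in controls 1 and 2 and to 30.0 and 23.5 TPM under the KO label, without overlap.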

How the data were processed

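RNA of GFP-positive testis cells in 4 samples at postnatal day 18 was sequenced as single-end 75 nt reads. The authors trimmed reads with Trim Galore 0.5.0 (cutadapt 1.16), aligned them to UCSC mm10 with STAR 2.6.0a and estimated expression with RSEM 1.3.1 on UCSC mm10 gene models, and they deposited TPM per gene. TPM keeps no depth, so precision from counting is unknown. Samples were grouped by their labels, and nothing says more than that each came from its own testis. The members and gene lists were chosen with earlier results of these data known. September dates were read as *Sept* and a number and matched to RefSeq (GRCm38.p6) synonyms, and positions are from GENCODE M21 (GRCm38). Genes whose mean was 1 TPM or more were fitted on log2(TPM + 1) with limma 3.58.1 in R 4.3.3 (eBayes with trend), and p-values were adjusted after Benjamini and Hochberg. The procedure was tested on simulated data. The genes named were all members, *Zfp541*, *Rec8*, all annulus genes, and the 3 most abundant genes of other lists. *Hist1h1t*, *Prm1*, *Prm2*, *Tnp1*, *Tnp2*, *Odf1* and *Akap4* were added after their values were seen. The differential analysis that the study ran with RSEM was not repeated here. Alternatives covered pseudocount, filter, scaling, trend, replicate block, FDR and leaving out each sample.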

Additional observations from a re-analysis of the deposited data

How the results depend on the processing

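The alternatives were chosen with earlier results known, and the crossed replicate block was added after seeing the data. With 2 libraries per group and no depth, the precision of low rows such as 1-Sep is not known. Limma called 0 genes in either direction with both other pseudocounts, no filter, both scalings, no trend, a threshold of 0.1 in place of 0.05, and the replicate block, where the correlation of deviations between same-numbered samples was -0.16. The paired numbers share only a label, and with them crossed 7 genes were higher and 80 lower, 1 of them a septin row, 12-Sep. Leaving out each library in turn gave 0 to 5610 genes higher and 0 to 1875 lower, and the large counts came from the fits without a control.

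The median of the septin rows was -0.059 after median-ratio scaling, 0.091 after quantile normalization and between 0.072 and 0.67 when a library was left out. Rows without overlap ranged from 4 to 7 higher and 1 to 3 lower with a library left out, beside 42.9% to 65.8% and 15.6% to 36.0% of all genes. The shift of the SEPT3 share, labelled KO minus control, then ranged from -22.6 to -9.79 percentage points and that of SEPT7 from 7.15 to 10.6. That of SEPT2 ranged from 1.34 to 3.45 and that of SEPT6 from -0.80 to 10.7. These shares are of the chosen members only, and the sign for SEPT2 depends on that choice.

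12-Sep stayed between -4.45 and -2.16, 14-Sep between 0.82 and 1.42 and 7-Sep between 0.38 and 1.00 under every alternative run. With median-ratio scaling 2-Sep was at -0.073, 4-Sep at -0.074, 6-Sep at -0.046 and 9-Sep at -0.13, the septin partners at -0.0035, the cytokinesis genes at -0.0055, the spermatid markers at -0.069 and the spermatogonial markers at -0.20, beside all genes at -0.0044. With quantile normalization 4-Sep was at -0.072, 9-Sep at -0.078, the spermatid markers at -0.038 and the spermatogonial markers at -0.059. Leaving out a library turned 1-Sep (-0.42 to 0.16), 2-Sep (-0.25 to 0.75), 4-Sep (-0.39 to 0.73), 6-Sep (-0.077 to 0.62) and the annulus genes (-1.45 to 0.49). It also turned the spermatogonial (-0.27 to 0.48), Leydig (-2.88 to 3.45) and macrophage markers (-0.36 to 5.21). Of 220 values of single rows and lists under an alternative, 23 changed sign. The shifts under median-ratio scaling go with that of all genes, and for all further sign changes the cause was not tested.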

Other observations

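A further 3 September rows matched a septin and were not among the 10 members, and their values are given here as a description. 5-Sep, of the SEPT2 subgroup, was at 69.8 and 51.9 TPM in control cells, against 28.5 and 30.3 TPM in KO-labelled cells, without overlap. Exons of *Gm49601* and *Gp1bb* overlap those of *Sept5* on the same strand, so that its row may share reads with them. 8-Sep, of the SEPT6 subgroup, was at 22.1 and 3.70 TPM in control cells, against 15.3 and 15.2 TPM in KO-labelled cells, with control 2 the low library. 3-Sep, of the SEPT3 subgroup, was at 0.47 to 1.86 TPM in the 4 libraries. The row 15-Sep, at 246 to 318 TPM, matched no septin by this name and was given no gene.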
